A study of Mus musculus with 9 samples.

Results

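Classical, Ly6c2-positive monocytes made up 330 of the 30463 cells kept from 9 single-cell RNA libraries of mouse brain. They were taken, in all 9 matrices, as barcodes with 500 to 20000 UMIs (unique molecular identifiers, each standing for 1 captured RNA molecule), 200 or more genes and at most 10% mitochondrial UMIs that held 2 or more UMIs of Ly6c2 and a UMI of at least 2 of 5 partner genes, Ccr2, Plac8, Chil3, F10 and Ms4a4c. Neutrophils, antigen-presenting cells and lymphoid cells were kept out by 3 limits, namely S100a8 and S100a9 together under 1% of UMIs, Cd74 under 100 UMIs per 10000, and no UMI of Cd79a, Cd3e or Nkg7. All of these genes chose the cells, so their levels are given as a description, with no test.

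The libraries came from brains of female C57BL/6J mice (C57BL/6 in the labels) aged 5 months, perfused with saline, from which live CD11b-positive cells were sorted and run on 10x 3′ chemistry. Ctrl denotes untreated mice (3 libraries, 1 brain each). D0 denotes mice fed the CSF1R inhibitor PLX5622 in the diet at 1200 mg/kg for 14 days (3 libraries, 2 brains pooled in each). D2 denotes mice given the same 14 days of inhibitor and then 2 days of control diet (3 libraries, 2 brains pooled in each). The study compared these groups to follow the microglia that survive CSF1R inhibition and then repopulate the brain, and it left the library D2-3 out. D2-3 is therefore shown apart here and enters no comparison unless it is named. Whether a monocyte of these libraries lay in a vessel, in the meninges or in the tissue cannot be told apart, since each brain, with the cerebellum left out, was homogenized before the sort.

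2 features of the libraries bear on every comparison below. First, Ctrl-1 held 6 classical monocytes, under the minimum of 10 set for the gene tests, so that these used Ctrl-2, Ctrl-3, the 3 D0 libraries, D2-1 and D2-2. Second, by the matrix headers the count software Cell Ranger was at version 3.1.0 when Ctrl-2, Ctrl-3 and D2-3 were made and at 3.0.2 for the other 6 libraries. In the 7 libraries tested, the Cell Ranger version and the contrast of D0 or D2 with Ctrl therefore cannot be told apart. A term for the version needs Ctrl-1 (3.0.2), which adds a contrast of versions within Ctrl, or D2-3 (3.1.0), which adds one within D2, where the version and whatever else sets D2-3 apart cannot be told apart. Fits of both kinds were added after the data were seen, and their values are given for the called genes and for some lists. These lists are the cell division, interferon-stimulated, monocyte to macrophage and MHC class I genes. The microglia and immature myeloid lists are given without them.

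Classical monocytes leave the bone marrow by way of the chemokine receptor CCR2, circulate for a short time, and either become nonclassical patrolling monocytes or enter tissue and turn into macrophages or dendritic cells. The surface protein Ly6C marks them in mice. CSF1R, the receptor blocked by PLX5622, is needed for the survival of microglia and of nonclassical monocytes, whereas classical monocytes carry it but depend on it less. Since monocytes can give rise to macrophages in other tissues, cells that carry monocyte genes are of interest wherever microglia are lost and return.

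Classical monocytes were rare in every library but D2-3. They numbered 6 of 4262 kept cells in Ctrl-1 (0.141%, exact Clopper-Pearson 95% interval 0.0517 to 0.306%), 26 of 2577 in Ctrl-2 (1.01%, 0.660 to 1.47%) and 10 of 3699 in Ctrl-3 (0.270%, 0.130 to 0.497%). In D0 there were 15 of 4147 (0.362%, 0.203 to 0.596%), 74 of 4980 (1.49%, 1.17 to 1.86%) and 36 of 2637 (1.37%, 0.958 to 1.89%). D2-1 had 23 of 3935 (0.584%, 0.371 to 0.876%) and D2-2 had 37 of 2418 (1.53%, 1.08 to 2.10%). The groups overlapped, because Ctrl-2 lay above D0-1 and D2-1. These intervals cover counting error only, and they do not cover the spread between mice.

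The mean share was 1.07 ± 0.617% in D0 (SD, n = 3) against 0.473 ± 0.468% in Ctrl (SD, n = 3), a ratio of 2.26, and a two-sided exact permutation test gave p = 0.2, where the smallest p this design allows is 0.1. For D2 the mean was 1.06 ± 0.669% (SD, n = 2), and the exact permutation p was 0.4, with a smallest possible p of 0.2. The shares are of captured cells, so that more monocytes and fewer microglia cannot be told apart. Among kept cells outside a gate for microglia (defined below), the shares were 2.05, 8.33 and 3.95% in Ctrl, 2.26, 7.01 and 5.18% in D0, and 3.34 and 5.48% in D2. On that denominator the means were 4.78, 4.82 and 4.41%, with an exact permutation p of 1.0 in both comparisons. That denominator also holds neutrophils, by the gate defined below. They were 0.282, 2.72 and 0.757% of kept cells in Ctrl. In D0 they were 2.15, 9.90 and 5.92%, and in D2 2.11 and 6.04%. Without the limit on S100a8 and S100a9 the ratio of D0 to Ctrl was 4.11, and without Ctrl-2 it was 5.21. Leaving out any other library gave 1.67 (Ctrl-1) to 3.01 (D0-1). The ratio of D2 to Ctrl was 2.23, and 4.42 without the limit on S100a8 and S100a9. Leaving out 1 library gave 1.23 (D2-2) to 5.14 (Ctrl-2).

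**Figure D1:**
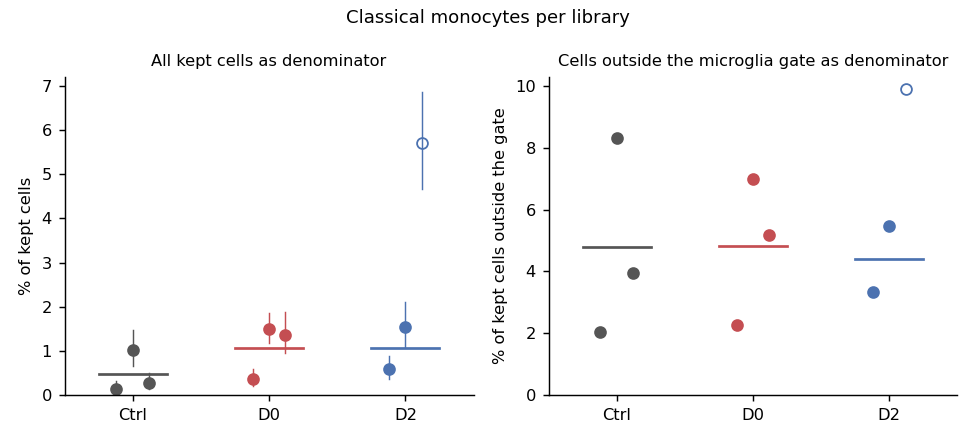
Classical monocytes as a percentage of all kept cells (left) and of kept cells outside the microglia gate (right), 1 point per library, with exact 95% binomial intervals at left and horizontal lines at the group means; D2-3 is the open point and is left out of the D2 mean. The 3 groups overlap in both panels, and D2-3 stands above the rest at 5.70% and 9.90%.

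The rule narrowed the cells in steps. 1022 kept cells had 2 or more UMIs of Ly6c2, 696 of these also had a UMI in at least 2 of the 5 partner genes, and 404 of those passed the limit on S100a8 and S100a9. That step removed 292 cells, 150 of them from D0-2, in which neutrophils were many. The limit on Cd74 removed 70 and the lymphoid genes 4. Cells just inside and just outside were few, as 33 monocytes had exactly 2 UMIs of Ly6c2, against 64 cells (44 of them in D2-3) that had exactly 1 and met the rest of the rule. The median number of partner genes was 4 in the first set and 3 in the second. 6 monocytes had exactly 2 of the 5 partner genes, and 5 cells were kept out for having 1. 11 lay within 50 to 100 UMIs of Cd74 per 10000, and 12 cells were kept out at 100 to 150. 2 lay at 0.5 to 1% of S100a8 and S100a9, and 6 cells were kept out at 1 to 2%.

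Among the 330, all 5 partner genes were detected in 169 cells, 4 in 116, 3 in 39 and 2 in 6. Plac8, a small cysteine-rich protein of myeloid cells, had a UMI in 99.4% of them. Ccr2, the receptor for the chemokine CCL2, had one in 96.4%, Ms4a4c in 93.3%, Chil3, a chitinase-like secreted protein, in 83.9%, and F10, coagulation factor X, in 62.7%. Cells that should lack Ly6c2 rarely held it. In clear microglia, with 4 or more microglial genes detected, the share with a UMI of Ly6c2 was 0.0266 to 1.43% over the 9 libraries at median depths of 5300 to 10860 UMIs, and their Ly6c2 level was 0.0349 to 2.95 CPM (the UMIs of a gene as a part of all UMIs summed over the cells of a class in a library, scaled so that 10000 CPM is 1%). The monocytes had median depths of 6515 to 14984 UMIs and 1006 to 2263 CPM of Ly6c2. Their summed UMIs were 77898, 313925 and 103792 in Ctrl, 113978, 759901 and 370687 in D0, and 182431 and 301307 in D2, so that a gene at 0 CPM may be at up to 38.5, 9.56 and 28.9 CPM in Ctrl, 26.3, 3.95 and 8.09 CPM in D0, and 16.4 and 9.96 CPM in D2 (3 UMIs, counting error only). Doublets were not removed. Of 98 kept barcodes found in 2 or more libraries, 1 belonged to a monocyte, and no barcode was a monocyte in more than 1 library.

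The levels of the genes in the rule differed between libraries, most of all that of Chil3. Ly6c2 (chromosome 15, 75108158 to 75111970, minus strand of GRCm38, as for all gene positions here) was at 1335, 1370 and 1272 CPM in Ctrl, 2053, 1690 and 1298 CPM in D0, and 2001 and 2263 CPM in D2. Ccr2 was at 886, 1061 and 1002 CPM in Ctrl, 1202, 900 and 847 CPM in D0, and 943 and 889 CPM in D2. Chil3 was at 770, 1555 and 2341 CPM in Ctrl, 1614, 3285 and 2482 CPM in D0, and 2417 and 3933 CPM in D2. The groups overlapped for Ccr2 and Chil3, and for Ly6c2 D0-3 lay within the Ctrl range. Ly6c1, the near copy of Ly6c2 that marks endothelial cells, was at 0, 6.37 and 0 CPM in Ctrl, 0 in all 3 D0 libraries, and 0 and 6.64 CPM in D2. Of the 351 windows of 50 bases in the last 400 bases of the Ly6c2 transcript, 88 (25.1%) also occur in the Ly6c1 transcript, so that reads from those stretches could not be assigned to 1 of the 2 genes.

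The label of the cells was checked on genes that the rule did not use, over the 7 libraries with 10 or more monocytes. Leading genes against all other kept cells were F13a1, the A subunit of coagulation factor XIII, at 800 ± 259 CPM (SD, n = 7) and 102-fold, Fn1, fibronectin, at 1320 ± 188 CPM and 62.7-fold, and Vcan, the matrix proteoglycan versican, at 134 ± 73.8 CPM and 61.4-fold. All are known products of classical monocytes. Next came Gm9733 (54.5-fold), AI839979 (50.7-fold), Pdlim1 (36.0-fold), Gpr141 (35.9-fold), Klra2 (31.1-fold), S100a4 (29.9-fold) and the integrin subunit Itgb7 (29.5-fold). The other 5 of the 15 genes of largest fold were in the rule. Cells grouped by a gate on Ly6c2 differ from the rest in the genes that go with Ly6c2, so these folds are a description.

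3 further gates were used for levels. The microglia gate took cells without Ly6c2 that had a UMI in 2 or more of 7 microglial genes (24788 cells), the nonclassical gate took cells with at most 1 UMI of Ly6c2 and a UMI in 2 or more of 7 nonclassical monocyte genes (632 cells, 356 of them in D2-3), and the neutrophil gate took cells with at least 5% S100a8 and S100a9 (1303 cells). Neutrophils also carried Chil3, up to 5777 CPM, and Ly6c2, at 48 to 807 CPM. They were set apart from the monocytes by Retnlg, at 9951 to 30003 CPM in the neutrophil gate against 0 to 16.6 CPM in the monocytes, and by the chemokine receptor Cxcr2, which was at 0 in the monocytes of every library. The nonclassical gate held much microglial RNA outside D2-3 (C1qa at 3500 to 7073 CPM, against 256 CPM in D2-3), so it is not used as a comparison group.

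**Figure D2:**
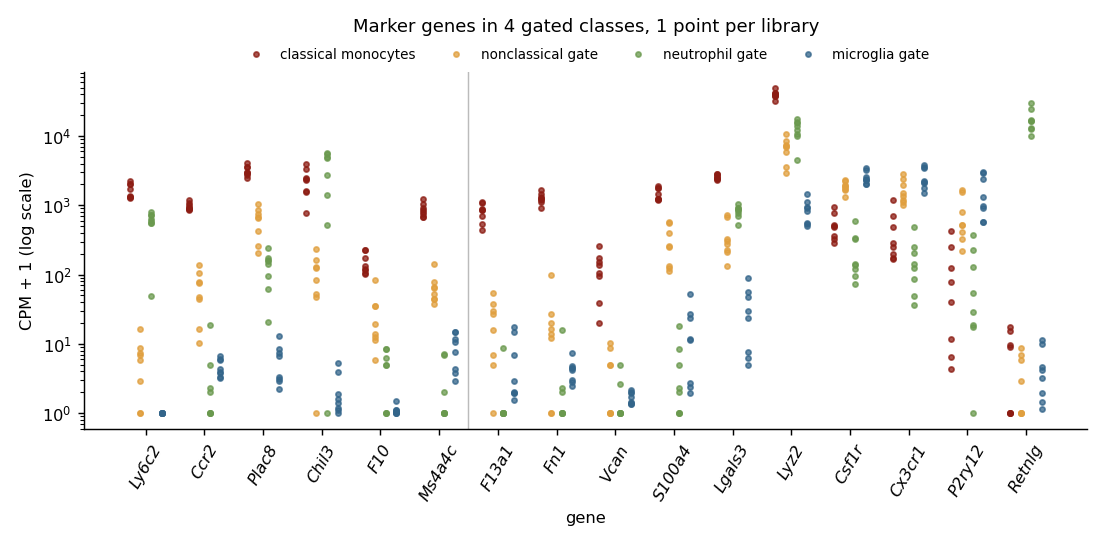
CPM plus 1, on a log axis, of 16 genes in 4 gated cell classes, 1 point per library without D2-3; genes left of the grey line chose the monocytes, and a value of 1 stands for 0 CPM. F13a1, Fn1, Lgals3 and Lyz2 are high in the classical monocytes, Retnlg in the neutrophil gate, and P2ry12 is high in the microglia gate and spread from 3.32 to 424 CPM in the monocytes.

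Csf1r, the target of the inhibitor, was detected in the monocytes of all groups. Its level was 783, 946 and 501 CPM in Ctrl, 518, 355 and 477 CPM in D0, and 285 and 322 CPM in D2. The D2 libraries lay below all of Ctrl, and the log2 difference was -1.38 (SE 0.304), which did not pass the edgeR quasi-likelihood test (Benjamini-Hochberg adjusted p = 0.126). A UMI of Csf1r was found in 89.9% of the 227 monocytes outside D2-3. The microglial gene P2ry12, given below, was also lowest in the D2 monocytes. How much Csf1r came from microglial RNA in the droplets was not tested. Cx3cr1, the fractalkine receptor that rises as monocytes turn nonclassical and is high in microglia, was at 1181, 694 and 289 CPM in Ctrl, 491, 200 and 251 CPM in D0, and 175 and 169 CPM in D2 (log2 difference of D2 from Ctrl -1.67, SE 0.443, adjusted p = 0.156 by the same test). Ctrl-1 was the highest, and the D2 libraries lay below the rest.

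Lgals3 and Lyz2, both genes of monocyte function, had small log2 differences between groups. Lgals3, which encodes the galectin MAC2, was at 2336, 2415 and 2438 CPM in Ctrl, 2492, 2695 and 2544 CPM in D0, and 2839 and 2848 CPM in D2. Lyz2, lysozyme, was at 31464, 49525 and 41680 CPM in Ctrl, 41034, 38535 and 42071 CPM in D0, and 37406 and 37437 CPM in D2. Log2 differences from Ctrl lay between -0.38 and 0.13 for these 2 genes, and neither passed the edgeR test.

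The inflammatory cytokine Il1b varied widely from library to library and from cell to cell. It was at 308, 1395 and 2071 CPM in Ctrl, 605, 4477 and 4327 CPM in D0, and 1157 and 2327 CPM in D2. D0 held both a library below 2 of the Ctrl libraries and the 2 highest of the 8 libraries, so the groups overlapped. A UMI of Il1b was found in 261 of the 330 cells (79.1%), from 3 of 6 in Ctrl-1 to 10 of 10 in Ctrl-3. Within D0-2 the median cell had 33.2 UMIs of Il1b per 10000 and the highest 247, while the medians in Ctrl-2 and D0-1 were 2.10 and 1.80 per 10000.

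A minority of the monocytes carried genes of other states. Cells with 2 or more of the 7 nonclassical genes (such as Treml4, Ace and Spn) numbered 0 of 6, 11 of 26 and 3 of 10 in Ctrl, 3 of 15, 22 of 74 and 14 of 36 in D0, and 9 of 23 and 7 of 37 in D2. Over all 9 libraries they were 107 of 330. MHC class II genes at 10 or more UMIs per 10000 were seen in 17 of 330 cells, 5 of them in Ctrl-2 and 6 in D2-3, a count that the limit on Cd74 holds down. Complement C1q genes, typical of resident macrophages, reached 20 UMIs per 10000 in 24 cells, and 17 of these 24 also had 3 or more UMIs of the microglial genes.

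Microglial UMIs in the monocytes were not alike in all groups. Monocytes with 3 or more UMIs of the 7 microglial genes of the gate numbered 3 of 6, 6 of 26 and 2 of 10 in Ctrl, 1 of 15, 5 of 74 and 6 of 36 in D0, and 0 of 23 and 3 of 37 in D2. The highest cell had 129 such UMIs, in Ctrl-2. A list of 15 microglial genes summed to 20732, 13347 and 7872 CPM in the Ctrl monocytes, 11818, 8089 and 6156 CPM in D0, and 5350 and 6926 CPM in D2, against 64664 to 112009 CPM in the microglia gate. Its most abundant gene was Cst3, which monocytes also express. Among the defining genes, P2ry12 was at 424, 245 and 77.1 CPM in Ctrl, 123, 39.5 and 10.8 CPM in D0, and 5.48 and 3.32 CPM in D2. Ctrl and D0 overlapped, since Ctrl-3 lay below D0-1, and D2 was lowest. Microglial RNA in the droplets and expression by the monocytes cannot be told apart here. All 12 genes tested from this list lay below 0 in D2 against Ctrl (median -2.36 log2). Of these, 0 were called by edgeR and 2 by DESeq2, which called 26 of 4649 genes in all. Without Ctrl-2 the median was -0.99 (10 of 12 below 0). Without monocytes of 3 or more microglial UMIs, which left Ctrl-2 as the sole control, it was -0.14 (4 of 6). At a minimum of 5 cells a library it was -0.19 (4 of 5). That filter removes cells by their microglial UMIs, so a smaller difference in a microglial list is partly built in. The calls became 11 of 14 with no upper limit on UMIs, where 58 of 4789 genes were called, and 8 of 9 with the 2 groups alone, where 174 of 3545 were. Over 27 settings, fits with a version term among them, the D2 median of this list ran from -4.29 to -0.14 log2.

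Most dividing monocytes outside D2-3 came from 3 libraries, D0-2, D2-1 and D2-2. Cells with a UMI in at least 2 of 8 mitotic genes (Mki67, Top2a, Cdk1, Ccnb1, Ccnb2, Ccna2, Cdca8 and Birc5) numbered 1 of 6, 0 of 26 and 0 of 10 in Ctrl, 1 of 15, 15 of 74 (20.3%) and 1 of 36 in D0, and 5 of 23 (21.7%) and 3 of 37 (8.11%) in D2. After each cell was thinned to 2000 UMIs, leaving out 3 shallower cells of D2-2, the counts were 1, 0 and 0 in Ctrl, 1, 12 and 0 in D0, and 4 and 3 in D2. Before thinning D0-1 and D0-3 had 1 such cell each, as Ctrl-1 had among its 6. The 0 of 26 cells in Ctrl-2 allows a share of up to 11.5%, and the 0 of 10 in Ctrl-3 up to 30%. With so few cells, a share like that of D2-2 could be missed in Ctrl-2 and Ctrl-3. The same unthinned count in the microglia gate gave 0.132 to 0.261% for Ctrl, 6.03 to 21.7% for D0 and 12.8 to 16.8% for D2. Whether RNA of dividing microglia reached monocyte droplets was not tested.

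Summed over 22 genes of cell division, the monocytes had 3915, 1825 and 1917 CPM in Ctrl, 4176, 6907 and 2083 CPM in D0, and 8217 and 5101 CPM in D2. Mki67, the proliferation marker, was at 167, 9.56 and 0 CPM in Ctrl, 202, 199 and 5.40 CPM in D0, and 521 and 199 CPM in D2. Ctrl-1, with 1 dividing cell of 6, was near D0-1. All 22 genes lay above 0 in both comparisons in the 7 libraries and 0 were called by edgeR. DESeq2 called 1 in D2, where 26 of 4649 of all genes were called. With genes of any UMI, 15 of 22 were called in D0 and 19 of 22 in D2, where 96 and 223 of 12271 genes were. With the 2 groups alone 12 of 14 were called in D2, where 174 of 3545 of all genes were. Without D0-2 7 of 14 were called in D2, where 49 of 3934 were. Without D0-3 they were 7 of 19 in D0 and 12 of 19 in D2, where 17 and 82 of 3963 were. 7 of the 22 did not overlap in D0 and 21 in D2, where 14.6% and 27.1% of all genes did so on the higher side. Their medians of 5.01 and 5.65 log2 rest on Ctrl libraries at or near 0, and with Ctrl-1 added they were 2.31 and 2.98. With the version term besides they were 0.99 (14 of 20 above 0) and 1.47 (17 of 20), with D2-3 and the version term 1.16 (15 of 22) and 1.96 (16 of 22), with all 9 libraries and the version term 0.28 (11 of 17) and 0.81 (14 of 17), and with no upper limit on UMIs 0.88 (22 of 22) and 0.95 (20 of 22). Genes of granule formation in marrow progenitors, a sign of immature cells, were highest in D2-1. A list of 13 such genes summed to 103, 63.7 and 57.8 CPM in Ctrl, 167, 186 and 48.6 CPM in D0, and 515 and 179 CPM in D2. Its 2 genes tested lay above 0 in both comparisons (medians 1.83 and 2.61 log2, 0 called), without overlap in D2 only. Elane was at 0, 3.19 and 0 CPM in Ctrl, 0, 13.2 and 2.70 CPM in D0, and 148 and 19.9 CPM in D2. A list of 14 neutrophil genes summed to 218, 277 and 222 CPM in Ctrl, 175, 751 and 202 CPM in D0, and 515 and 481 CPM in D2.

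In D0 against Ctrl, 0 of 4649 genes tested (0.0%) passed the edgeR quasi-likelihood test at an adjusted p under 0.05. At an unadjusted p under 0.05 there were 375, and DESeq2 called 5. The genes of smallest p are therefore named as not called. Apoe, the lipid carrier apolipoprotein E, lay 1.47 log2 lower (-1.47, SE 0.224, adjusted p = 0.083) and the mitochondrial gene mt-Atp6 was at -0.95 (SE 0.131, adjusted p = 0.069). Gm47283, Maf and mt-Co2 followed on the lower side (-1.84, -1.79 and -0.62 log2, adjusted p = 0.297 each by edgeR).

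On the higher side stood Slpi, a secreted inhibitor of leukocyte proteases, at 2.15 log2 (SE 0.413, adjusted p = 0.297 by edgeR). Slpi was at 154, 98.7 and 96.3 CPM in Ctrl, 447, 645 and 256 CPM in D0, and 384 and 594 CPM in D2, so that every D0 and D2 library lay above every Ctrl library, Ctrl-1 included. Ppp1r35, Crem, Ets2 and Ccrl2 came next, at 2.09, 2.79, 2.34 and 1.64 log2 (adjusted p = 0.350 each by edgeR). Crem, a factor of cyclic AMP signalling, and Ets2 rested on low levels in Ctrl, where Crem was at 25.7, 9.56 and 0 CPM and Ets2 at 12.8, 12.7 and 19.3 CPM.

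After 2 days of recovery, 6 of 4649 genes (0.129%) passed the test against Ctrl, and all 6 were lower in D2. That split belongs to this fit, as the calls were 7 higher and 19 lower by DESeq2, 70 higher and 104 lower with the 2 groups alone, 116 higher and 107 lower for genes with any UMI, and 41 in each direction without D0-3. 638 genes had an unadjusted p under 0.05. Apoe fell most clearly. It was at 4814, 2889 and 4586 CPM in Ctrl, 1860, 1201 and 1182 CPM in D0, and 822 and 810 CPM in D2, with 150 and 244 UMIs behind the D2 values. The 3 groups did not overlap, in the order Ctrl, D0, D2, and the log2 difference of D2 from Ctrl was -2.29 (SE 0.261, edgeR adjusted p = 0.0108).

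Apoe lay lower within single cells as well as in the sums. Its median was 10.1, 17.3 and 36.6 UMIs per 10000 in the Ctrl monocytes, 2.76, 2.76 and 3.505 in D0, and 5.92 and 3.499 in D2. Among monocytes with fewer than 3 microglial UMIs the medians were 1.21, 12.01 and 14.7 in Ctrl, 3.02, 2.81 and 3.57 in D0, and 5.92 and 2.75 in D2, so that Ctrl-1 (3 cells left) was no longer high while Ctrl-2 and Ctrl-3 were. In the microglia gate Apoe changed the other way, and was at 1317, 1051 and 1514 CPM in Ctrl against 2029 and 2370 CPM in D2 (0.89 log2, edgeR adjusted p = 0.0300).

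Maf and Marcks followed the same order of groups as Apoe. Maf, a transcription factor of resident macrophages, was at 282, 131 and 96.3 CPM in Ctrl, 52.6, 26.3 and 40.5 CPM in D0, and 10.96 and 16.6 CPM in D2 (-3.09 log2, SE 0.489, edgeR adjusted p = 0.0393). The D2 values rest on 2 and 5 UMIs, and 20.3% of the 227 monocytes outside D2-3 had a UMI of it. Marcks, an actin-linked substrate of protein kinase C, was at 680, 449 and 289 CPM in Ctrl, 228, 180 and 189 CPM in D0, and 110 and 116 CPM in D2 (-1.84 log2, SE 0.283, edgeR adjusted p = 0.0393). The groups did not overlap for either gene, and the highest values of both were in Ctrl-1, whose monocytes had the highest level of microglial genes.

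Ifit1, Unc93b1 and mt-Atp6 differed in that Ctrl-1 lay away from Ctrl-2 and Ctrl-3. Ifit1, an interferon-induced binder of foreign RNA, was at 25.7, 108 and 125 CPM in Ctrl, 35.1, 54.0 and 45.9 CPM in D0, and 16.4 and 3.32 CPM in D2 (-3.79 log2, SE 0.552, edgeR adjusted p = 0.0393), with 3 and 1 UMIs in D2. Unc93b1, which carries nucleic acid-sensing Toll-like receptors to endosomes, was at 411, 758 and 732 CPM in Ctrl, 456, 441 and 451 CPM in D0, and 334 and 329 CPM in D2 (-1.27 log2, SE 0.197, edgeR adjusted p = 0.0393). mt-Atp6, a subunit of ATP synthase, was at 3954, 6400 and 5954 CPM in Ctrl, 3562, 3435 and 2997 CPM in D0, and 3744 and 2994 CPM in D2 (-0.98 log2, SE 0.147, edgeR adjusted p = 0.0393). For all 3 genes Ctrl-1, made with Cell Ranger 3.0.2 like D0 and D2, stood nearer to the D0 values than to Ctrl-2 and Ctrl-3. D2-3, made with 3.1.0 like Ctrl-2 and Ctrl-3, was at 10.8 CPM of Ifit1, 472 CPM of Unc93b1 and 4270 CPM of mt-Atp6, and so was also nearer to D0 than to Ctrl-2 and Ctrl-3. Beside mt-Atp6, the median mitochondrial share of the monocytes was 2.92 and 2.62% in Ctrl-2 and Ctrl-3 and 1.71 to 2.14% in Ctrl-1, D0, D2-1 and D2-2, and its part in the result was not tested.

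Adding Ctrl-1, or leaving out cells with microglial UMIs, changed which of the 6 were called. With Ctrl-1 in the fit, Apoe (-2.37 log2, edgeR adjusted p = 0.00218), Marcks and Maf (adjusted p = 0.0323 each) passed. With a term for the version besides, the same 3 passed (Apoe -2.52 log2, adjusted p = 0.0104 by edgeR), while Ifit1 was at -1.52, Unc93b1 at -0.27 and mt-Atp6 at -0.20 log2 (adjusted p = 0.756, 0.815 and 0.783). With monocytes of 3 or more microglial UMIs left out and a minimum of 5 cells a library, which kept the 7 libraries and not Ctrl-1, Apoe (-2.07 log2, adjusted p = 0.0111), Ifit1 and mt-Atp6 passed by edgeR, and Marcks (-0.92, adjusted p = 0.289) and Maf (-2.14, adjusted p = 0.235) did not. With D2-3 and a term for the version but not Ctrl-1, 0 genes were called by edgeR (354 at an unadjusted p under 0.05), and Apoe was at -1.89 log2 (adjusted p = 0.114) and Ifit1 at -3.40 (adjusted p = 0.097). With all 9 libraries and the version term, 18 genes were called (3 higher, 15 lower), Apoe (-2.18 log2, edgeR adjusted p = 0.00111) and Ifit1 (-3.07, edgeR adjusted p = 0.0147) among them. Apoe lay below 0 in each of 26 alternative fits, from -2.73 to -1.29 log2, and was called in 20 of them. In the fit of the 7 libraries, 0 genes were called by edgeR when D2-1 or D2-2 was left out, which leaves 1 D2 library that is assumed to vary like the other groups, or when the limit on S100a8 and S100a9 or that on Cd74 was lifted (435 to 805 at an unadjusted p under 0.05). The same count of 0 came from leaving out monocytes of 3 or more microglial UMIs with the minimum of 10 cells kept, which left Ctrl-2 as the sole control (519 at an unadjusted p under 0.05).

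**Figure D3:**
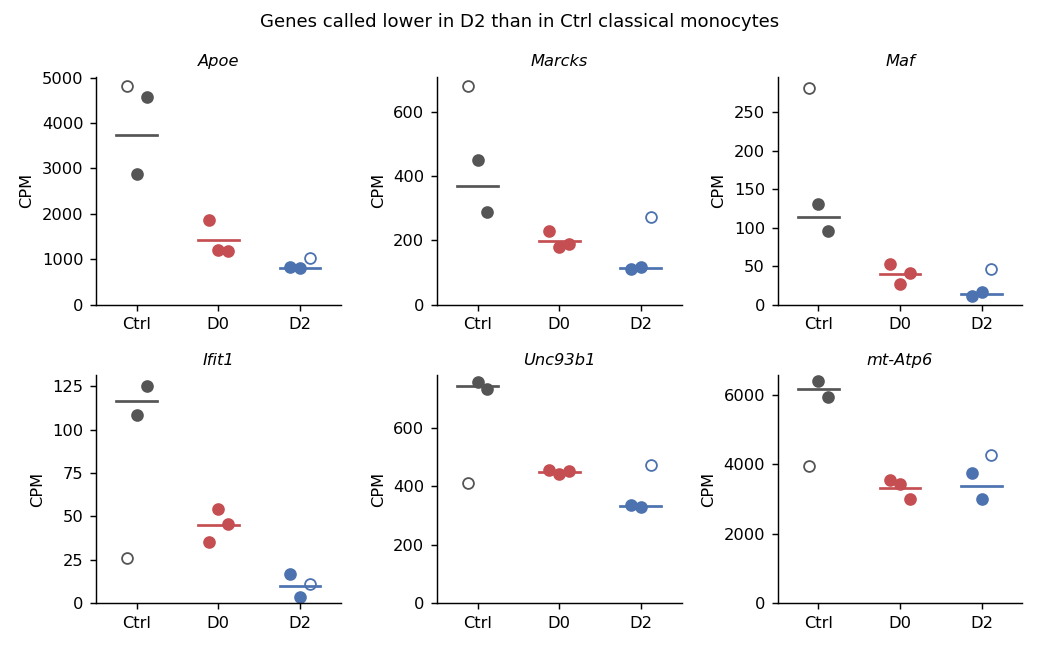
CPM in classical monocytes, 1 point per library, of the 6 genes that passed the test as lower in D2 than in Ctrl; open points are Ctrl-1 and D2-3, which were outside the fit, and lines are means of the filled points. Ctrl-1 is high for Apoe, Marcks and Maf and is near the D0 values for Ifit1, Unc93b1 and mt-Atp6.

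In the fit of the 7 libraries edgeR called 0 genes higher in D2, while 7 were called higher by DESeq2, 116 with genes of any UMI and 70 with the 2 groups alone. Those of smallest p in the fit of the 7 libraries were Slpi (2.24 log2, SE 0.436, edgeR adjusted p = 0.108) and then Smc1a, Hist1h1e, Hist1h4d and Hist1h1d (1.39, 3.87, 4.50 and 3.48 log2, edgeR adjusted p = 0.126 each). The last 3 are replication-dependent histone genes, expressed in S phase. Hist1h1e was at 116, 19.1 and 48.2 CPM in Ctrl, 272, 151 and 45.9 CPM in D0, and 674 and 222 CPM in D2, and so was highest in D2-1, the library with the highest share of dividing monocytes.

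Between D2 and D0, 0 of 4649 genes (0.0%) passed the edgeR test, with 281 at an unadjusted p under 0.05, and DESeq2 called 1. The gene of smallest p on the lower side was Cxcl10, an interferon-induced chemokine, at 0, 127 and 366 CPM in Ctrl, 272, 211 and 175 CPM in D0, and 32.9 and 46.5 CPM in D2 (-2.40 log2, SE 0.468, edgeR adjusted p = 0.780). Lpl, Ifit1, Myadm and Alas1 followed at -2.01, -2.51, -1.63 and -2.07 log2. On the higher side stood AY036118, Lilrb4a, Smc1a, Ldlrad3 and Gpatch8, at 2.36, 1.03, 1.02, 1.14 and 1.41 log2, all with an edgeR adjusted p of 0.780.

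Interferon-stimulated genes, which cells switch on when type I interferon binds its receptor, were followed as a list of 28, of which 23 could be tested in the monocytes. In D0 all 23 lay below 0 (median -0.79 log2, against -0.01 for all genes tested), 0 were called, and 9 of 23 did not overlap between the groups, where 10.2% of all genes did so on the lower side. In D2 all 23 lay below 0 (median -1.25 log2, against 0.00 for all genes), 1 was called (Ifit1), and 19 of 23 did not overlap, where 17.7% of all genes did so on the lower side. The calls in D2 became 3 of 23 by DESeq2 (26 of 4649 over all genes) and 11 of 23 with the 2 groups alone (174 of 3545). They were 12 of 28 with genes of any UMI (223 of 12271). Without D0-2 (49 of 3934) or without D0-3 (82 of 3963) they were 5 of 23. Leaving out Ctrl-2, Ctrl-3, D2-1 or D2-2 left 1 library in that group, with D2 medians of -1.62, -0.83, -1.09 and -1.53 log2. Summed over the list, the monocytes had 5854, 5826 and 7920 CPM in Ctrl, 5694, 3054 and 5239 CPM in D0, and 3190 and 3986 CPM in D2. D2 lay below Ctrl, D0-2 was the lowest of the 8 libraries, and D0-1 was close to Ctrl-1 and Ctrl-2. Between D2 and D0, 19 of 23 lay below 0 (median -0.42 log2) and 4 did not overlap, where 9.61% of all genes did so on the lower side.

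2 genes of the list are given by library. Ifi27l2a, the most abundant, was at 2580, 2036 and 1619 CPM in Ctrl, 1728, 1342 and 1632 CPM in D0, and 1020 and 1676 CPM in D2, where the groups overlapped. Isg15, a ubiquitin-like protein that is joined to other proteins, was at 449, 468 and 694 CPM in Ctrl, 272, 113 and 289 CPM in D0, and 60.3 and 173 CPM in D2, with no overlap between any pair of groups other than D0 and D2. Its log2 difference of D2 from Ctrl was -2.30, which did not pass the edgeR test (adjusted p = 0.13). Isg15 and Ifit3 were chosen for naming after their values were seen.

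The size of the list's difference depended on the setting, though its median lay below 0 in each of 27 settings in both comparisons. The D2 median was weakest with no limit on Cd74 (-0.46, 20 of 26 below 0) and -0.64 with no upper limit on UMIs. It was -0.83 without Ctrl-3. The D0 median was -0.37 with no upper limit on UMIs, -0.48 with no limit on Cd74, -0.47 without D0-2, -0.49 without Ctrl-3 and -1.25 without Ctrl-2. With Ctrl-1 added, 23 of 23 genes lay below 0 in both comparisons (medians -0.60 and -1.03 log2). With a term for the version besides, 12 of 23 lay below 0 in D0 (median -0.03) and 17 of 23 in D2 (median -0.48). With D2-3 and the version term, without Ctrl-1, 18 of 23 lay below 0 in D0 (median -0.56) and 23 of 23 in D2 (median -0.99).

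The starts of the called gene Ifit1 and of 2 further genes of the list are shown because they carry the interferon response element, the sequence bound by the STAT and IRF factors that switch these genes on. The motif searched was TTTC, any 2 bases and TTTC again, on both strands with overlaps allowed, in the 250 bases before the start of each gene in RefSeq (GRCm38.p6). It occurred in 978 of 32851 such windows (2.98%) and in 12 of the 19 list genes with an entry. Capitals mark the matches, and each stretch runs 5′ to 3′ on the strand of its gene.
Ifit1 (chr19:34640765-34640833, plus strand): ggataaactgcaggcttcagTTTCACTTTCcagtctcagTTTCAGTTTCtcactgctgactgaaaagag
Isg15 (chr4:156200855-156200916, minus strand): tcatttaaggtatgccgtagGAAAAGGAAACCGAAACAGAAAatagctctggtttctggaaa
Ifit3 (chr19:34583353-34583436, plus strand): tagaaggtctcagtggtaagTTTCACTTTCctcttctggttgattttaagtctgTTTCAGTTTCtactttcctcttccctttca
Ifit1 and Ifit3 each hold 2 matches and Isg15 holds 3, which overlap on the opposite strand. The windows before Apoe and Ly6c2 held no match to these letters. A match is a description of the sequence and not evidence of binding in these cells.

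In microglia of the same libraries most genes of the list rose. In the microglia gate 20 of the 23 genes were called higher in D0 (where 10.3% of 12771 genes were called higher and 7.3% lower) and 21 of 23 in D2 (where 11.9% were called higher and 9.93% lower), with medians of 1.18 and 1.63 log2. Summed over the list the microglia gate had 759, 559 and 616 CPM in Ctrl, 1279, 1599 and 1399 CPM in D0, and 1943 and 2034 CPM in D2, all of them under the levels in the monocytes. Isg15 was at 30.9, 13.6 and 23.05 CPM in Ctrl microglia and 66.2 and 62.0 CPM in D2 microglia. The difference between the classes is tested next.

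**Figure D4:**
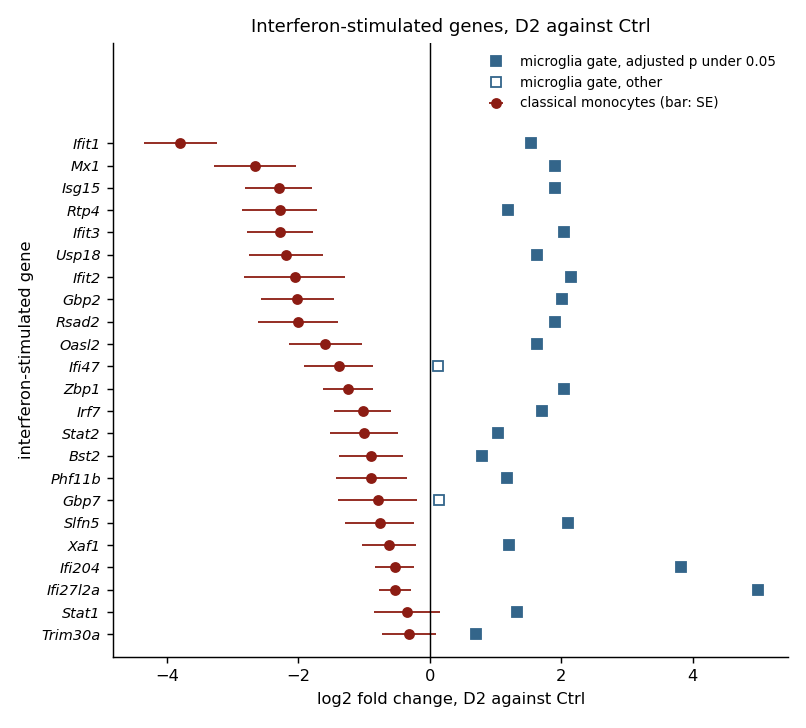
Log2 fold change of D2 against Ctrl for the 23 interferon-stimulated genes tested, in classical monocytes (circles, bars are SE) and in the microglia gate (squares, filled where the edgeR adjusted p is under 0.05). All circles lie below 0, Ifit1 alone is called among them, and 21 of 23 squares are called above 0.

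Whether the monocytes changed differently from microglia was tested by an interaction term on the 2 sums of each library. In D0 against Ctrl, 166 of 11866 genes (1.4%) differed at an edgeR adjusted p under 0.05, 155 of them (1.31% of genes tested) with a lower change in monocytes and 11 (0.0927%) with a higher one. In D2 against Ctrl there were 222 (1.87%), 210 lower (1.77%) and 12 higher (0.101%). The counts depended on D2-3, as with it included they were 29 (1 higher) and 58 (0 higher), and with it and a term for version by class 561 (236 higher) and 1057 (419 higher). Of the interferon-stimulated list, 16 of 28 genes in D0 and 21 of 28 in D2 had a lower change in monocytes. Both comparisons share the control libraries Ctrl-2 and Ctrl-3. SEs of this fit were much alike for abundant genes, so its p-values do not follow each gene's own spread between libraries.

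Most of these genes were called higher in microglia. Of the called genes that were also tested within monocytes, 121 of 155 in D0 and 145 of 204 in D2 were called higher in microglia. Over all 12771 genes tested in the microglia gate, 10.3% and 11.9% were. The called genes were selected for a difference between the classes, so the counts and medians in this paragraph are a description. The monocyte change was within 0.5 log2 of 0 for 97 of the 155 in D0 and for a minority, 82 of the 204, in D2. Median changes were -0.19 log2 in monocytes and 1.33 in microglia in D0, and -0.53 and 1.29 in D2. 6 of the 166 and 23 of the 222 had a class and group with 3 or fewer UMIs in all, and these were left out of the ranking by size.

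Genes at a high level in monocytes that were higher in the microglia gate in D0 or D2 than in Ctrl are the plainest cases. Lgals3 stayed at 2336 to 2848 CPM in monocytes of the 8 libraries, while in microglia it was at 5.27, 4.02 and 6.68 CPM in Ctrl, 55.5, 28.9 and 22.5 CPM in D0, and 46.7 and 89.2 CPM in D2 (difference of the changes -2.68 log2, edgeR adjusted p = 9.04e-20, in D0 and -3.50, edgeR adjusted p = 6.11e-29, in D2). Ifi27l2a, an interferon-induced mitochondrial protein, went in microglia from 53.7, 28.5 and 26.4 CPM in Ctrl to 319, 764 and 545 CPM in D0 and 702 and 916 CPM in D2 (-4.58 and -5.44 log2, edgeR adjusted p = 4.84e-60 and 1.29e-70). C3, the central complement component, was at 236 and 366 CPM in the Ctrl-2 and Ctrl-3 monocytes and 312 and 358 CPM in D2, against 0.155 and 0.270 CPM and 6.60 and 15.5 CPM in microglia (-5.48 log2 in D2, edgeR adjusted p = 8.60e-28). Even at their highest, the microglial levels of Lgals3 and C3 were far below the lowest levels in monocytes.

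Lyz2 and Il1b gave smaller differences of the same sign. Lyz2 differed by -1.12 log2 in D0 and -1.53 in D2 (edgeR adjusted p = 0.00202 and 1.77e-05), and Il1b by -2.09 and -2.42 (edgeR adjusted p = 9.06e-13 and 1.33e-14). The SE of the Il1b difference in D0 was 0.262, against 0.616 for its change within monocytes. The p-values for Il1b may therefore understate its spread between libraries. Il1b was at 605 CPM in monocytes and 542 CPM in microglia in D0-1, and at 1157 and 824 CPM in D2-1. Whether RNA of monocytes or neutrophils reached microglial droplets was not tested. The 6 genes of the rule, of which the gate itself sets Ly6c2 to 0, summed to 10.4, 9.22 and 10.2 CPM in the microglia gate in Ctrl, 16.03, 22.1 and 16.0 CPM in D0, and 23.2 and 33.8 CPM in D2, and their group means were ordered Ctrl, D0, D2, as were those of Lgals3, C3 and Ifi27l2a there. Plac8, which microglia should lack, was at 1.24 to 2.07 CPM in Ctrl, 2.34 to 7.43 CPM in D0 and 6.45 and 12.1 CPM in D2, and 14 neutrophil genes summed to 204, 263 and 239 CPM there in Ctrl, 278, 393 and 178 CPM in D0, and 276 and 437 CPM in D2.

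Apoe, Isg15 and Ifit1 lay on opposite sides of 0 in the 2 classes. The differences were -1.88 and -3.06 log2 for Apoe (edgeR adjusted p = 8.20e-11 in D0 and 1.06e-23 in D2) and -2.88 and -4.23 log2 for Isg15 (edgeR adjusted p = 3.90e-18 and 1.70e-29). Ifit1 differed by -2.38 and -5.33 log2 (edgeR adjusted p = 0.0174 and 3.22e-07). With Ctrl-1 and a term for version by class, the difference of Ifit1 in D0 was 0.57 log2. With D2-3 and that term but not Ctrl-1, the difference of Apoe was 1.22 log2 in D0 and 0.0033 in D2. In D2 the microglia gate rose in all 3 genes, and in the monocytes Apoe and Ifit1 fell.

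Of the lower changes of largest size, several rest on few UMIs in the monocytes and on levels near 0 in the Ctrl microglia. In the microglia gate Platr17 was at 0.155 and 0.116 CPM in Ctrl-2 and Ctrl-3 and 1.74 and 2.71 CPM in D2. Tiam2 was at 0.309 and 0.0772 CPM there in Ctrl-2 and Ctrl-3 and 1.49 and 2.23 CPM in D2. Bhlhe40, a transcription factor, had 5 and 14 UMIs in Ctrl-2 and Ctrl-3 and 0, 6 and 1 in D0 (-6.08 log2, edgeR adjusted p = 2.87e-07). Il1rn, the interleukin-1 receptor antagonist, had 8 and 3 UMIs in Ctrl-2 and Ctrl-3 and 0, 4 and 3 in D0 (-5.07 log2, edgeR adjusted p = 0.000926). Platr17 had 8 and 7 in Ctrl-2 and Ctrl-3 and 2 and 4 in D2, and Tiam2 had 13 and 6 against 3 and 4. These 4 genes were at 0 UMIs in Ctrl-1, and with Ctrl-1 and a term for version by class in the fit their differences turned above 0 (5.33 for Bhlhe40 and 4.45 for Il1rn in D0, 5.62 for Platr17 and 6.83 for Tiam2 in D2). Tmem51 was at 105 and 77.1 CPM in the Ctrl-2 and Ctrl-3 monocytes and 43.9, 35.5 and 59.3 CPM in D0 (-4.16 log2, edgeR adjusted p = 0.00107). Its change was -1.12 log2 within monocytes and 3.36 log2 in the microglia gate. In that gate Tmem51 was at 0.309 and 0.116 CPM in Ctrl-2 and Ctrl-3 and 2.34, 1.40 and 1.99 CPM in D0.

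Few genes had a higher change in the monocytes. F13a1 was at 847, 710 and 434 CPM in Ctrl, 895, 841 and 529 CPM in D0, and 1091 and 1102 CPM in D2, while in the microglia gate it was at 13.9, 5.92 and 16.8 CPM in Ctrl and 0.537 to 1.91 CPM in D0 and D2 (3.85 and 3.67 log2, edgeR adjusted p = 1.54e-29 and 1.63e-22). F13a1 also marks border macrophages, whose list of 10 genes summed to 147, 85.3 and 186 CPM in the microglia gate in Ctrl, 32.3, 14.0 and 16.3 CPM in D0, and 16.5 and 43.4 CPM in D2. Cd209a, a lectin of monocyte-derived dendritic cells, was at 103, 15.9 and 67.4 CPM in Ctrl monocytes, 79.0, 25.003 and 72.8 CPM in D0, and 236 and 113 CPM in D2 (5.27 log2 in D2, edgeR adjusted p = 3.49e-06). Its change within monocytes alone was 2.33 log2 and was not called. In the microglia gate Cd209a was at 6.65, 2.99 and 6.29 CPM in Ctrl and 0.248 and 0.877 CPM in D2, a change of -3.04 log2.

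Cebpd, a transcription factor of the acute phase, was at 141, 147 and 222 CPM in Ctrl monocytes, 246, 247 and 159 CPM in D0, and 345 and 339 CPM in D2. In the microglia gate it was at 159 to 166 CPM in Ctrl and 47.9 to 97.8 CPM in D0 and D2. Its change there was called in D2 (edgeR adjusted p = 0.0399) and not in D0 (edgeR adjusted p = 0.0818). The differences between the classes were 1.22 log2 in D0 and 2.13 in D2 (edgeR adjusted p = 0.0133 and 1.17e-07). The kinase Stk17b, the repressor Zbtb7a and the splicing factor Hnrnpl had a higher change in D0 (1.64, 1.46 and 1.38 log2). In monocytes Stk17b was at 244, 217 and 202 CPM in Ctrl and 325, 451 and 378 CPM in D0. Zbtb7a was at 154, 70.1 and 67.4 CPM in Ctrl and 114, 111 and 156 CPM in D0. Hnrnpl was at 116, 63.7 and 19.3 CPM in Ctrl and 132, 134 and 143 CPM in D0. Ctrl-1, outside the fit, lay within the D0 range for Zbtb7a and below it for Stk17b and Hnrnpl. The endosomal receptor Tlr13 and the histone gene Hist1h1c had a higher change in D2 (2.41 and 2.00 log2).

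**Figure D5:**
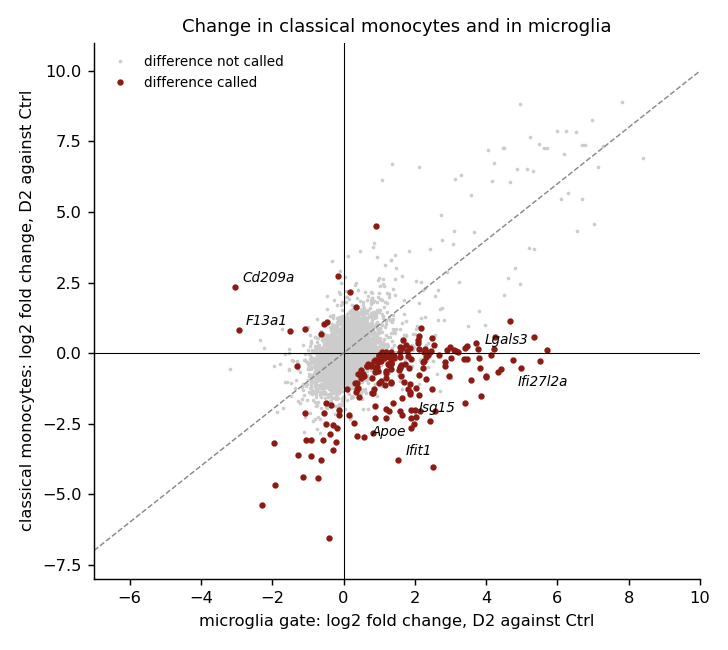
Log2 fold change of D2 against Ctrl in the microglia gate (horizontal) and in classical monocytes (vertical) for 4605 genes tested in both, with the 203 genes called for a difference between the classes in red and the line of equal change dashed. Most red points lie to the right near or below 0 on the vertical axis, and F13a1 and Cd209a lie at upper left.

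The other lists held few or no calls within monocytes in the fit of the 7 libraries. Of 16 genes of the passage from monocyte to macrophage, 2 were called lower in D2 (Apoe and Maf), where 0.129% of all genes were, and 14 lay below 0 (median -1.11 log2, against -0.10 in D0). The calls in D2 became 10 of 16 with the 2 groups alone (174 of 3545 over all genes) and 9 of 22 with genes of any UMI (223 of 12271). They were 8 of 17 with no upper limit on UMIs (58 of 4789). Leaving out Ctrl-2, Ctrl-3, D2-1 or D2-2 left 1 library in that group, with D2 medians of -0.78, -1.37, -1.23 and -1.40 log2. Without monocytes of 3 or more microglial UMIs, at a minimum of 5 cells, 9 of 15 lay below 0 in D2 (median -0.36), and with the version term the D2 median was -2.43 with Ctrl-1 and -0.20 with D2-3. This list holds C1qa and other genes of microglia, whose level in the monocytes is given above. MHC class I genes, which present peptides to T cells, lay below 0 in 12 of 12 in both comparisons (medians -0.35 and -0.70 log2, 0 called). With Ctrl-1 and the version term 9 of 12 lay above 0 in D0 (median 0.22) and 7 of 12 below 0 in D2 (median -0.12), and with D2-3 and the version term 10 of 12 lay above 0 in D0 (median 0.21), so that the direction in D0 turned. B2m, the light chain, was at 1528, 2198 and 1888 CPM in Ctrl, 2202, 1682 and 2282 CPM in D0, and 1579 and 1636 CPM in D2, where Ctrl-1 was the lowest of the 8 libraries.

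Genes of classical identity and of growth factor sensing had no calls in the 7 libraries. Of 23 classical monocyte genes 0 were called, with medians of 0.10 log2 in D0 and -0.06 in D2, and of 17 receptors for growth factors and cytokines 0 were called, with medians of -0.19 and -0.37. Adhesion and migration genes (15 tested, medians -0.09 and -0.43), transcription factors (18 tested, -0.23 and -0.38, with Maf called in D2), inflammatory genes (20 tested, 0.06 and -0.65) and antimicrobial and lysosome genes (17 tested, -0.12 and -0.38) had no other call. The same held for immediate-early and stress genes (24 tested, -0.33 and -0.53), pattern recognition and Fc receptors (17 tested, -0.06 and -0.07), glycolysis genes (14 tested, 0.27 and 0.13), nonclassical genes (9 tested, -0.62 and -0.73) and dendritic cell genes (7 tested, -0.63 and -1.001). Neutrophil, border macrophage, immature myeloid, lymphoid, endothelial and red cell genes had 3, 2, 2, 1, 1 and 0 genes tested, and none was called.

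The library D2-3 held 103 of the 330 classical monocytes, 5.70% of its kept cells (exact 95% interval 4.67 to 6.87%), and 172 when the upper limit on UMIs was lifted. Its monocytes were deeper, with a median of 14984 UMIs. Ly6c2 was at 1006 CPM and Ccr2 at 675 CPM, both lower than in each of the 8 other libraries, while S100a4 stood at 2120 CPM and Il1b at 3978 CPM. Apoe was at 1022 CPM and Marcks at 273 CPM, so that Apoe lay nearer to D2-1 and D2-2 than to Ctrl and Marcks did not. Isg15 was at 200 CPM and Ifit1 at 10.8 CPM, both within or near the range of the other D2 libraries, whereas Cxcl10 at 507 CPM was above all of them. Its nonclassical gate held 356 cells, and 83.9% of its microglia gate met the count for dividing cells, which sets this library apart from the other D2 libraries in more than its monocytes.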

How the data were processed

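CD11b-positive brain cells of 9 libraries were measured by 10x 3′ single-cell RNA sequencing. Per the file headers, the authors made the deposited UMI counts with Cell Ranger 3.0.2 (6 libraries) or 3.1.0 (3 libraries); the study's methods name 3.1.0 and mm10. The deposited values are raw counts, 20257894 to 61230741 UMIs a library.

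Members were selected as described, and 0 doublets were removed. Counts were summed per library and class. Libraries with at least 10 members entered 1 edgeR 4.0.16 quasi-likelihood fit of 3 groups (R 4.3.3, TMM, filterByExpr), with Benjamini-Hochberg adjustment over all genes tested, called at 0.05. Interaction terms used library, class and class by condition. Shares were compared by exact permutation of libraries. DESeq2 1.42.0 and other settings were alternatives. The p-values of the shares and of the fit within monocytes measure the spread between libraries. In the interaction fit, the SEs in D0 were 0.255 (Apoe), 0.260 (Lyz2), 0.262 (Il1b) and 0.271 (Lgals3). Within monocytes the SEs of the same genes were 0.224, 0.0962, 0.616 and 0.131. The interaction p-values thus do not follow each gene's own spread between libraries. The Cell Ranger version could be entered as a term with Ctrl-1 or D2-3 added. Intervals are at 95%. Only the edgeR fit within monocytes was tested on simulated counts, for D0 against Ctrl. The interaction fit, the comparisons of D2, the shares and the gates were not.

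The cells and the 23 gene lists were chosen with earlier results of these data known. Named genes were the 5 largest called in each direction with 20 CPM and no overlap, or otherwise those of smallest p, besides the genes of the rule, the 15 of largest fold, 4 at most of each list, and a short list (Csf1r, Cx3cr1, Ly6c1, Lgals3, Il1b, Lyz2). Genes with a class and group at 3 or fewer UMIs were left out of the ranking of interactions. Gene positions are from GENCODE vM21 (453 of 453 genes matched). 1 gene of the short list is not reported here.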

Additional observations from a re-analysis of the deposited data

Results flagged for a closer look

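The change of gene expression differed between classical monocytes and microglia of the same libraries for 166 genes in D0 against Ctrl and for 222 genes in D2 against Ctrl, by the edgeR interaction term. As differences of log2 change, monocytes minus microglia, the genes named in D0 were F13a1 (3.85), Stk17b (1.64), Zbtb7a (1.46), Hnrnpl (1.38), Cebpd (1.22), Bhlhe40 (-6.08), Il1rn (-5.07), Platr17 (-4.90), Ifi27l2a (-4.58) and Tmem51 (-4.16). In D2 they were Cd209a (5.27), F13a1 (3.67), Tlr13 (2.41), Cebpd (2.13), Hist1h1c (2.00), Platr17 (-5.88), C3 (-5.48), Ifi27l2a (-5.44), Ifit1 (-5.33) and Tiam2 (-5.06).

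Outside the comparisons, D2-3 had classical monocytes at 5.70% of its kept cells, above the 0.141 to 1.01% of the Ctrl libraries. A further 69 of its cells met the rule but for the upper limit on UMIs, against 1, 0 and 5 in Ctrl.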

How the results depend on the processing

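The libraries limit most results: the Ctrl monocytes tested numbered 26 and 10, and Cell Ranger version as a term could not be fitted without Ctrl-1 or D2-3. Fits with a minimum of 5 members, which bring in Ctrl-1 unless members with microglial UMIs are left out, and fits with D2-3 and the version term, were chosen after seeing the data. Genes called in D0 against Ctrl numbered 0, and 5 by DESeq2, 96 for genes with any UMI, 4 with the replicate block, 3 with cells thinned to 2000 UMIs, 1 with Ctrl-1 added and 1 with a minimum of 5 and microglial-UMI members left out; leaving out 1 library gave 0 to 17 (17 without D0-3). For D2 against Ctrl the 6 became 26 (DESeq2), 223 (any UMI), 174 (the 2 groups alone), 21 (replicate block), 2 (D2-3 included), 58 (no upper UMI limit), 3 (3 of the 5 genes, which also took Ctrl-3 below 10 members), 0 (no S100 limit), 0 (no Cd74 limit), 0 (no members with 3 microglial UMIs, which left Ctrl-2 as the sole control), 1 (thinned) and 3 in each of the 3 fits with a minimum of 5, 18 with all 9 libraries and the version term and 0 with D2-3 and that term; leaving out 1 library gave 0 to 82 (2 and 3 without Ctrl-2 and Ctrl-3, 12, 49 and 82 without D0-1, D0-2 and D0-3, 0 without D2-1 or D2-2; where a group keeps 1 library, it is assumed to vary like the others). For D2 against D0 the 0 became 1 (DESeq2), 45 (any UMI) and 1 (replicate block), and 0 to 2 without 1 library. The cause was not tested. Differences from microglia numbered 29 and 58 (D0, D2) with D2-3 included, 104 and 146 without members of 3 microglial UMIs, 110 and 137 with Ctrl-1 and version by class as a term, 561 and 1057 with D2-3 and that term, and 160 and 446 with both libraries and it; leaving out 1 library gave 65 to 243 and 97 to 276, lowest without Ctrl-2. By gene expression in the 7 libraries tested, r of same-numbered deviations from the group means was -0.137 to 0.0738 over 5 pairs, and -0.143 to 0.143 for other pairs. Ctrl and D2 had 2 libraries each in the fit, and the deviations of such a pair mirror each other. These r therefore cannot decide whether replicate numbers pair the libraries. The share of monocytes, though, was lowest in replicate 1 of each group. With the block, 7 of 12 microglia, 2 of 22 cell division and 0 of 23 interferon genes were called in D2. The share of monocytes then had an edgeR adjusted p of 0.0664 in D0 and 0.0726 in D2, against 0.287 and 0.348 without the block.

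Reversed were the D2 share outside the microglia gate (-0.11 log2), mt-Co2 in D0 with Ctrl-1 and the version term (0.32; 0.12 with all 9 libraries), Smc1a (-0.063) and Hist1h1d (-0.069) in D2 with D2-3 and the version term, and Cxcl10 in D2 against D0 with D2-3 (0.063). With Ctrl-1 and version by class as a term, the differences from microglia became 5.33 for Bhlhe40, 4.45 for Il1rn, 6.59 for Platr17 and 0.57 for Ifit1 in D0, and 5.62 for Platr17 and 6.83 for Tiam2 in D2; with D2-3 and that term Apoe became 1.22 in D0 and 0.0033 in D2, and with all 9 libraries Ifit1 in D0 became 0.27; Bhlhe40, Il1rn, Platr17 and Tiam2 had 0 UMIs in Ctrl-1. Of 889 values for 35 results on single genes in monocytes, 746 kept direction and side of the threshold, 75 lost it, 63 gained it and 5 reversed; of 465 for 31 differences from microglia, 356 kept, 100 lost and 9 reversed.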
